A study of Mus musculus with 6 samples.

Results

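The genes described here carry nucleosides across membranes of cells and organelles or begin the breakdown of nucleosides and nucleotides, mainly of pyrimidines. They are a list of 8 named genes, *Slc29a1*, *Slc29a3*, *Upp1*, *Cda*, *Dpyd*, *Nt5c*, *Nt5c2* and *Nt5c3*, out of 54838 genes in the count table, and each identifier was matched to its symbol in a reference table of gene names. They are defined by name, with no threshold on a measured value. RNA was sequenced from I1DN leukemia cells, a murine acute myeloid leukemia on a C57BL/6 background whose genotype is IDH1R132H, DNMT3AR882H and NrasG12D. The vehicle group and the AG636 group, with 3 libraries each, both carried all of these alleles. AG636 is a small-molecule inhibitor of DHODH, the mitochondrial enzyme of *de novo* pyrimidine synthesis, and was given b.i.d. by oral gavage at 100 mg/kg. The leukemia was made by transducing fetal liver progenitors with constructs for the 3 alleles. Stored cells of a diseased mouse were then transplanted into sublethally irradiated congenic *Ptprca* recipients, whose ages the sources used here do not give. The cells were sorted from bone marrow and spleen as immature leukemia cells. The paper's results give the sequenced I1DN cells as positive for cKit and negative for CD11b. Its sequencing methods give sorted leukemia cells, with no model named, as high in cKit and low in CD11b. The study gives the length of treatment differently in different places, so it is not stated here.

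Nucleosides are polar and cross membranes mainly through carriers. Equilibrative transporters of the SLC29 family let them flow along their gradient, and concentrative transporters of the SLC28 family pump them in with sodium. Inside the cell, uridine can be phosphorylated by uridine-cytidine kinases and so recovered for RNA and DNA synthesis, or cleaved by uridine phosphorylase and degraded through uracil. Nucleotidases work against the kinases by removing the phosphate from nucleotides. Uptake and recovery are the other source of pyrimidines beside *de novo* synthesis, the route that DHODH inhibitors act on.

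Libraries held between 4634963 and 7906589 counts. Levels are given as CPM, the counts of a gene scaled to the size of its library after TMM correction. Libraries were made from the end of each transcript. The CPM of a gene were compared between samples, and sums and ratios of CPM over genes were not tested. On this scale 3 counts, the upper limit that a count of 0 allows, equalled 0.392 CPM in the deepest and 0.637 CPM in the shallowest library, with counting error alone considered. Principal component 1 of the log2 CPM separated the groups, with vehicle replicate 1 farthest out among the vehicle libraries, and AG636 replicate 2 stood apart on component 2. The immature markers *Kit*, between 31.8 and 46.3 CPM, and *Myb*, between 397 and 552 CPM, were present in every library. *Itgam*, which encodes CD11b, was also found in every library, and had 19.1 CPM with vehicle and 44.2 CPM with AG636.

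Among these genes the data showed lower *Slc29a1* and *Nt5c2* and higher *Nt5c3* with AG636. *Slc29a1*, the main nucleoside transporter of the plasma membrane, fell 2.16-fold, the nucleotidase gene *Nt5c2* fell 1.59-fold and the pyrimidine nucleotidase gene *Nt5c3* rose 1.42-fold. *Slc29a3*, *Upp1*, *Cda* and *Nt5c* did not pass the threshold, and *Dpyd* had no counts. Of the 8 genes, 7 had enough counts to be tested, so that 1 was called higher, 2 were called lower and 4 were not called. A call is an adjusted p under 0.05 from edgeR's quasi-likelihood fit to all 11092 tested genes, of which 21.3% were called, 10.3% higher and 11.0% lower. The CPM of the groups did not overlap for 4 of the 7 genes, against 41.1% of all tested genes. Of these 4, 2 were higher and 2 lower with AG636, against 20.5% and 20.6% of all tested genes. The median log2 fold change of the 7 genes was 0.28, beside 0.029 over all tested genes. With 3 mice against 3, the smallest two-sided p of an exact permutation test is 0.1, and each gene without overlap had this value.

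**Figure D1:**
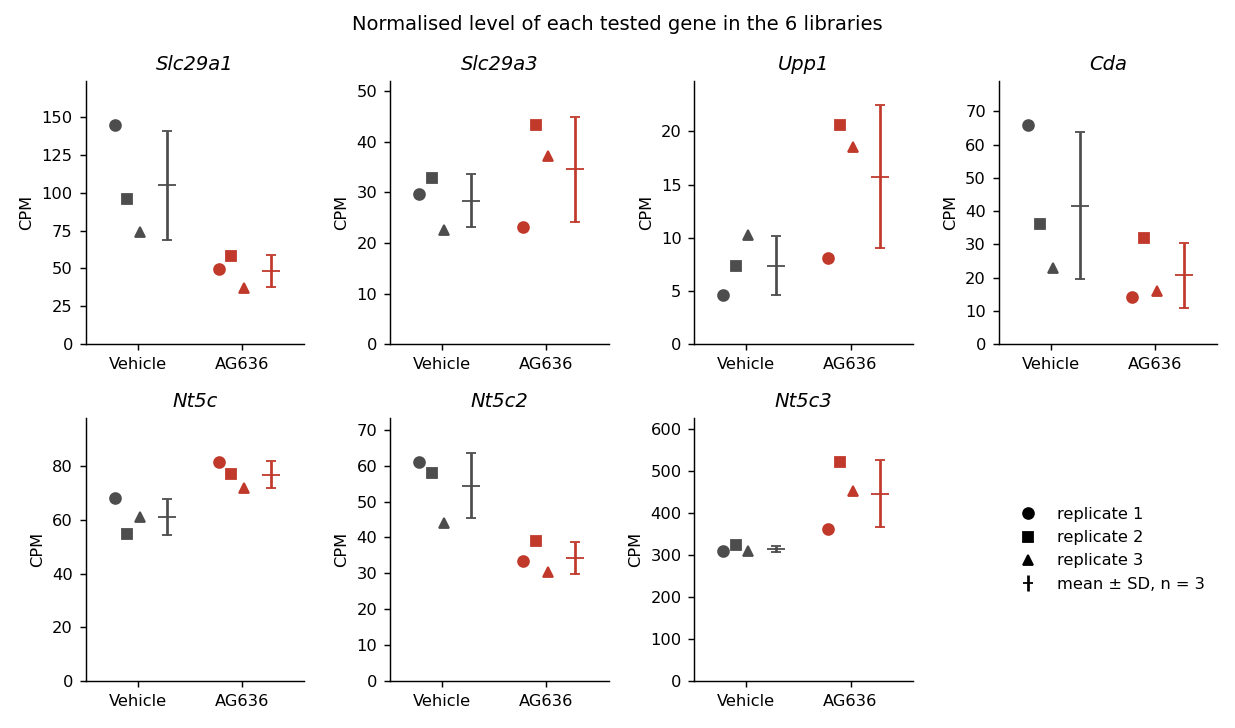
Level in CPM (vertical axis, from 0) of the 7 tested genes in each of the 3 vehicle and 3 AG636 libraries, with the mean ± SD beside the points. The libraries of the groups are apart for *Slc29a1*, *Nt5c*, *Nt5c2* and *Nt5c3* and overlap for *Slc29a3*, *Upp1* and *Cda*.

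*Slc29a1* encodes the equilibrative transporter ENT1, which carries purine and pyrimidine nucleosides across the plasma membrane in both directions. The gene (ENSMUSG00000023942) lies on the minus strand of chromosome 17 from 45585200 to 45599606 of mm10. Its level was 145, 95.6 and 74.2 CPM in vehicle replicates 1 to 3. It was 49.7, 58.6 and 37.4 CPM in AG636 replicates 1 to 3. Every AG636 library was thus below every vehicle library, and vehicle replicate 1 was the highest of all. The mean went from 105 ± 36.2 to 48.6 ± 10.6 CPM (SD, n = 3 each). The log2 fold change was -1.11 with a standard error of 0.25 (adjusted p = 0.014 in edgeR). Without AG636 replicate 3 it was -0.95, with an adjusted p of 0.056 in edgeR, and without vehicle replicate 1 it was -0.83 and the call held. An annotated gene without counts, *Gm17080*, shares 275 exon bases with *Slc29a1* on the opposite strand.

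RefSeq places 8 start sites in *Slc29a1* (GRCm38.p6), and each was given a window of 250 bases before and 50 bases after the start. These windows were searched on both strands for 6 motifs, of which none contains another. They were the E-box CACGTG, a C/EBP-ATF composite element TGATGCA, a C/EBP site TTGCGCA, a PU.1 site GAGGAAG, a YY1 site AAGATGG and the GC box GGGCGG. The window with most matches is shown because *Slc29a1* had the largest fold change among the called genes of the list. It lies at chr17:45595481-45595780 on the minus strand, has a GC content of 72.0% and holds 5 GC boxes, in capitals, which begin at -113, -95, -53, -37 and -17 from the start.
Slc29a1: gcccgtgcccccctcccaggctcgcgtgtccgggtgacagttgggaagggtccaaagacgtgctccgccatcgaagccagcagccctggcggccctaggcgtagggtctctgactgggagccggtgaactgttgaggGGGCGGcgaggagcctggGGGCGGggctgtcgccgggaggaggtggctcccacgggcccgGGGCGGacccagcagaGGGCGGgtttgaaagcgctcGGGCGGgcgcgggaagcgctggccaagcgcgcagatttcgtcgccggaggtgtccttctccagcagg
Over all 32851 RefSeq windows, 35.7% hold a GC box. Other *Slc29a1* windows held an E-box, found in 7.15% of all windows, and a PU.1 site, found in 13.6%. Matches are a description of these letters and do not show binding.

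*Slc29a3* encodes ENT3, the related carrier that lets nucleosides out of lysosomes. Its gene is on the minus strand of chromosome 10 from 60712072 to 60752794 (ENSMUSG00000020100). It had 29.6, 32.8 and 22.6 CPM in the vehicle libraries and 23.2, 43.3 and 37.2 CPM in the AG636 libraries. The groups overlapped, since AG636 replicate 1 was lower than 2 of the vehicle libraries while the other AG636 libraries were above them all. The log2 fold change of 0.28 had a 95% interval from -0.25 to 0.82 (adjusted p = 0.427 in edgeR). Both SLC29 genes were counted in the same libraries, and their fold changes had opposite signs.

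Of the 5 other transporters listed, 3 had enough counts to test. *Slc29a2*, which encodes the second equilibrative carrier of the plasma membrane, had 12.8, 10.3 and 8.98 CPM with vehicle and 4.88, 5.98 and 5.28 CPM with AG636. It fell without overlap between the groups, with a log2 fold change of -0.99 and a standard error of 0.25 (adjusted p = 0.0233 in edgeR). Its call did not hold in 4 of the 6 fits without 1 library, those without vehicle replicate 1 or 2 and without AG636 replicate 1 or 3, where its adjusted p in edgeR rose to at most 0.0789. The ratio of *Slc29a1* to *Slc29a2* counts was between 8.26 and 11.3 with vehicle and between 7.07 and 10.2 with AG636. These ratios overlapped, in contrast to the levels of both genes. *Slc28a2*, a sodium-driven carrier that takes purine nucleosides and uridine, had 9.98, 11.2 and 19.8 CPM with vehicle and 21.9, 43.7 and 16.4 CPM with AG636. Its log2 fold change of 1.01 had a standard error of 0.38 and did not pass the threshold (adjusted p = 0.0792 in edgeR). *Slc28a3*, the broad-range concentrative carrier, had a log2 fold change of -0.66 with a standard error of 0.50 (adjusted p = 0.363 in edgeR). *Slc29a4* and *Slc28a1* were too low to test, with 3 counts and 1 count in all libraries together.

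*Cda*, cytidine deaminase, turns cytidine and deoxycytidine into uridine and deoxyuridine. It lies on the minus strand of chromosome 4 from 138338424 to 138367992 (ENSMUSG00000028755). Its level was 66.0, 36.2 and 22.8 CPM in vehicle replicates 1 to 3. In AG636 replicates 1 to 3 it was 14.2, 32.0 and 16.1 CPM. AG636 replicate 2 was above vehicle replicate 3, so the groups overlapped, and vehicle replicate 1 was again the highest. The log2 fold change of -1.01 had a 95% interval from -1.89 to -0.13 (adjusted p = 0.0922 in edgeR). The fold change depended on single libraries, since it was -0.54 without vehicle replicate 1 and -1.46 without AG636 replicate 2. It passed the threshold in edgeR without AG636 replicate 2 (adjusted p = 0.0284) and without vehicle replicate 3 (adjusted p = 0.0322).

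*Slc29a1* and, in part, *Cda* followed the order of red cell precursor markers within the groups, and not across all 6 libraries. The summed level of 8 erythroid markers was 4942, 3204 and 1822 CPM in vehicle replicates 1 to 3 and 2504, 3478 and 1981 CPM in AG636 replicates 1 to 3, and none of the 8 was at 0. Within each group, *Slc29a1* had the same order of libraries as this sum. *Cda* had the same order within the vehicle group, and in the AG636 group its highest library was also the one with the highest sum. All 8 markers were tested, of which 2 were called lower and 0 higher, with a median log2 fold change of -0.81. *Klf1*, an erythroid transcription factor, was among those called, with a log2 fold change of -1.10 (adjusted p = 0.0238 in edgeR). It lost its call without AG636 replicate 1 or 3, with an adjusted p of at most 0.0868 in edgeR. Vehicle replicate 3 had the lowest erythroid sum of the 6 libraries and still had more *Slc29a1*, at 74.2 CPM, than every AG636 library. The part of erythroid cells in either result was not tested, and in bulk libraries fewer cells of a type cannot be told apart from less RNA per cell.

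**Figure D2:**
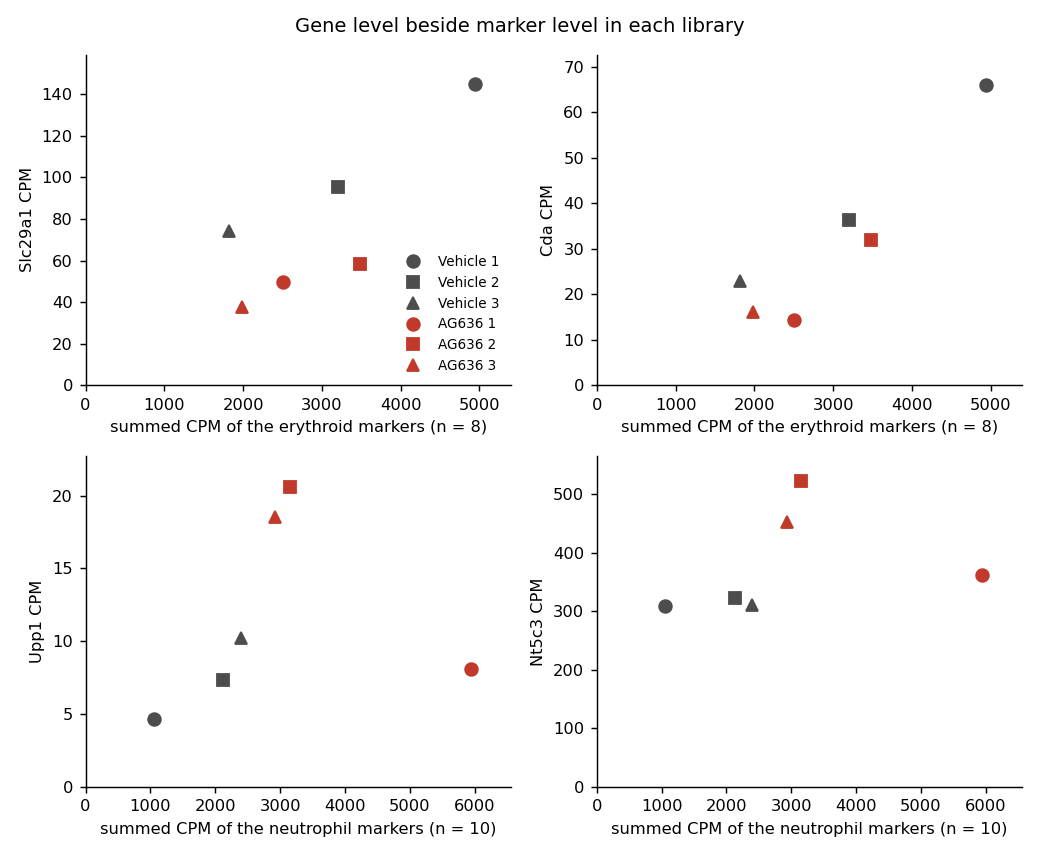
Level in CPM of *Slc29a1* and *Cda* against the summed CPM of 8 erythroid markers, and of *Upp1* and *Nt5c3* against that of 10 neutrophil markers, with 1 point per library. Vehicle replicate 1 has the highest erythroid sum, 4942 CPM, and the highest *Slc29a1* and *Cda*, and AG636 replicate 1 has the highest neutrophil sum, 5948 CPM, of which *S100a8* and *S100a9* are 89.2%, and the lowest *Upp1* and *Nt5c3* of its group.

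*Upp1* encodes uridine phosphorylase 1, which splits uridine into uracil and ribose 1-phosphate and so takes it away from recovery. It is found on the plus strand of chromosome 11 from 9118103 to 9136170 (ENSMUSG00000020407). Its counts were low, at 26, 56 and 49 in the vehicle libraries and 38, 100 and 98 in the AG636 libraries. These equalled 4.64, 7.33 and 10.2 CPM with vehicle and 8.07, 20.6 and 18.5 CPM with AG636. AG636 replicates 2 and 3 were above all vehicle libraries, whereas AG636 replicate 1 lay within the vehicle range. The mean was 7.40 ± 2.80 CPM with vehicle and 15.7 ± 6.72 CPM with AG636 (SD, n = 3 each). The log2 fold change of 1.10 had a 95% interval from 0.26 to 1.94, with an unadjusted p of 0.0157 and an adjusted p of 0.0631 in edgeR. It passed the threshold without AG636 replicate 1, at a log2 fold change of 1.41 (adjusted p = 0.032 in edgeR). DESeq2 also placed it past the threshold, with an adjusted p of 0.0309.

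*Dpyd* encodes dihydropyrimidine dehydrogenase, which reduces uracil and thymine in the first and rate-limiting step of their breakdown. It lies on the plus strand of chromosome 3 from 118562129 to 119432924 (ENSMUSG00000033308) and had 0 counts in each of the 6 libraries. Such a count allows a level of up to 0.392 to 0.637 CPM, depending on the library, so no fold change is given. The next enzymes of the route were near the same limit. *Dpys*, dihydropyrimidinase, had 1 count and *Upb1*, beta-ureidopropionase, had 3 counts over all libraries together. *Upp2*, *Tymp* and *Agxt2* had 0 counts in all libraries, and *Abat*, a transaminase, had 36 counts. None of these 6 further breakdown genes could be tested. *Upp1* was the only gene tested for the cleavage of uridine to uracil or the steps after it among those listed.

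The 3 remaining genes encode cytosolic nucleotidases. *Nt5c3* encodes the pyrimidine-specific enzyme, which dephosphorylates UMP and CMP and is best known from red cells, where its loss causes hemolytic anemia. It lies on the minus strand of chromosome 6 from 56882400 to 56923932 (ENSMUSG00000029780). Its level was 309.7, 323 and 310.5 CPM in the vehicle libraries, a spread of 2.29% of the mean. In AG636 replicates 1 to 3 it was 363, 522 and 453 CPM. Every AG636 library was above every vehicle library. The log2 fold change was 0.50 with a standard error of 0.14 (adjusted p = 0.0291 in edgeR). Among the 6 fits that left out 1 library, the call held in that without AG636 replicate 1 alone. Without vehicle replicate 1, 2 or 3 its log2 fold change was 0.48, 0.51 or 0.47, and without AG636 replicate 2 or 3 it was 0.37 or 0.49, and the adjusted p in edgeR was between 0.0654 and 0.0852. In these fits it stayed positive, and 5 libraries were used in place of 6.

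*Nt5c2* encodes the nucleotidase that prefers the purine nucleotides IMP and GMP. Its position in the count table is the minus strand of chromosome 19 from 46886831 to 47015153 (ENSMUSG00000025041). In the GENCODE release used here the gene reaches down to 46883317. On the minus strand the annotations thus share the start at 47015153 and differ at the end of the transcript. The effect of this on its counts was not tested. Its level was 61.2, 58.1 and 44.1 CPM in the vehicle libraries and 33.4, 39.0 and 30.4 CPM in the AG636 libraries. Again the groups did not overlap, here with every AG636 library lower. The log2 fold change was -0.67 with a standard error of 0.17 (adjusted p = 0.024 in edgeR). Without vehicle replicate 1 or 2 it was -0.60 or -0.63, and without AG636 replicate 1 or 3 it was -0.66 or -0.59, and the adjusted p in edgeR was between 0.0677 and 0.0921. The gene *Ina* shares 456 exon bases with *Nt5c2* on the opposite strand and had 1 count in all.

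*Nt5c* encodes a 5′(3′)-deoxyribonucleotidase, which acts on deoxyribonucleotides such as dUMP and dTMP. It lies on the minus strand of chromosome 11 from 115490420 to 115491862 (ENSMUSG00000020736). It had 68.1, 54.7 and 61.0 CPM with vehicle and 81.8, 77.1 and 71.9 CPM with AG636. The groups did not overlap, but the difference was small, with a log2 fold change of 0.33 and a 95% interval from 0.03 to 0.63 (adjusted p = 0.104 in edgeR). It passed the threshold with library size alone as the scaling, at 0.42 (adjusted p = 0.046 in edgeR). Its exons share 48 bases with *Armc7* on the opposite strand, which had 163 counts against 2232 for *Nt5c*.

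The windows of *Nt5c2* and *Nt5c3* are printed because these nucleotidase genes were called in opposite directions. *Nt5c2* has 7 RefSeq start sites and *Nt5c3* has 1. The *Nt5c2* window is the first of those with most matches, at chr19:46962302-46962601 on the minus strand with a GC content of 69.0%. In capitals are a C/EBP-ATF composite element at -183 and a GC box at -101, both with their letters on the opposite strand, and GC boxes at -11, 1 and 10. The *Nt5c3* window lies at chr6:56901837-56902136 on the minus strand and holds 1 GC box at -50, also on the opposite strand.
Nt5c2: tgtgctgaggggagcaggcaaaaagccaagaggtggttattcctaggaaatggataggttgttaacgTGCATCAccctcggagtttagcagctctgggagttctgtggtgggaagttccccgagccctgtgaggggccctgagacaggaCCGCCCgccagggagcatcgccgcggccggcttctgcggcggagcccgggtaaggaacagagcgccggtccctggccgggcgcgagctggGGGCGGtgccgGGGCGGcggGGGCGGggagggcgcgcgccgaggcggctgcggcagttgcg
Nt5c3: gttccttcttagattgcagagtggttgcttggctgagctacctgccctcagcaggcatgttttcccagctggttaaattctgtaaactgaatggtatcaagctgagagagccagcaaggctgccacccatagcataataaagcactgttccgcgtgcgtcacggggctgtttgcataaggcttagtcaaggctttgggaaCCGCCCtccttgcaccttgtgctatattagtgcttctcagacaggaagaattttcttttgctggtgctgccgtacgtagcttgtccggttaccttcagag
The composite element was found in 3.15% of all windows, and among the 8 genes it was found in *Nt5c2* alone, where 3 overlapping windows share it. A GC box was found in 17 of the 23 windows of the 8 genes and in at least 1 window of each gene, including *Dpyd*. No window of these genes held the C/EBP or YY1 letters. The median GC content over all windows was 52.7%.

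Neutrophil markers were also higher with AG636. Of 10 such markers, 8 were called higher and 0 lower, with a median log2 fold change of 1.25, and none was at 0. Their sum was 1049, 2126 and 2394 CPM in vehicle replicates 1 to 3 and 5948, 3155 and 2929 CPM in AG636 replicates 1 to 3. *Itgam* was among those called, with a log2 fold change of 1.21 (adjusted p = 0.0219 in edgeR), although its call did not hold without vehicle replicate 1 or 2 or AG636 replicate 1 or 3, where its adjusted p in edgeR was at most 0.0814. Within the vehicle group *Upp1* had the same order of libraries as the neutrophil sum, and *Nt5c3* did not. AG636 replicate 1 had the highest neutrophil sum of the 6 libraries and the lowest *Upp1* and *Nt5c3* within its group, at 8.07 and 363 CPM. The sum was carried by *S100a8* and *S100a9*, which made up between 78.0% and 91.2% of it in each library. The other 8 markers summed to 181, 254 and 211 CPM in vehicle replicates 1 to 3 and to 640.0, 694 and 418 CPM in AG636 replicates 1 to 3. Within the AG636 group, 6 of the 10 markers were highest in replicate 1, and 3 were lowest there. These 3, *Ly6g*, *Mmp8* and *Retnlg*, had the same order of AG636 libraries as *Upp1* and *Nt5c3*. Of 9 monocyte and macrophage markers, 5 were tested and 2 called higher, and their sum was between 47.1 and 70.6 CPM with vehicle and between 87.0 and 143 CPM with AG636. The sum of 8 immature myeloid markers was between 2441 and 4946 CPM with vehicle and between 1824 and 5154 CPM with AG636, and 0 of the 7 tested were called. Markers of B cells summed to at most 19.8 CPM and those of T and NK cells to at most 4.91 CPM in any library. Of the 6 markers of host endothelium or stroma, *Cdh5* and *Lepr* were at 0 and *Pecam1*, which myeloid cells also express, was the only one with enough counts to test. The part of more mature cells in these results was not tested.

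Other genes of nucleoside recovery and breakdown were compared in 6 lists of 41 genes, of which 30 were tested, 3 called higher, 9 called lower and 18 not called. Over all tested genes 21.3% were called, 10.3% higher and 11.0% lower. These shares stand beside the counts of each related list below as well, and no list was tested as a set. Among 5 genes of *de novo* pyrimidine synthesis, 4 were lower. *Dhodh*, the gene of the enzyme that AG636 inhibits, had 62.4, 49.4 and 55.6 CPM with vehicle and 35.0, 28.2 and 31.7 CPM with AG636, a log2 fold change of -0.82 (adjusted p = 0.0088 in edgeR). *Cad*, *Umps* and *Ctps* had log2 fold changes of -0.84, -0.70 and -0.71 (adjusted p = 0.0194, 0.0141 and 0.00685 in edgeR). *Umps* lost its call without AG636 replicate 3, and *Cad* without that library or vehicle replicate 2, with an adjusted p of at most 0.0544 and 0.0664 in edgeR. *Ctps2*, the second CTP synthase gene, had a log2 fold change of 0.48 and was not called (adjusted p = 0.0901 in edgeR).

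Among 9 genes of pyrimidine recovery, 2 were called lower, 0 higher and 7 were not called. *Uck2*, the uridine-cytidine kinase with the higher activity, had 239, 234.5 and 216 CPM with vehicle and 152.5, 161 and 149.7 CPM with AG636. It fell without overlap, with a log2 fold change of -0.57 and a standard error of 0.11 (adjusted p = 0.00814 in edgeR), and the call held in each of the 6 fits without 1 library. *Uck1*, the other kinase for uridine, had a log2 fold change of 0.08, and its 95% interval lay between -0.20 and 0.37 (adjusted p = 0.665 in edgeR). *Dctd*, dCMP deaminase, fell by 0.86 on the log2 scale (adjusted p = 0.0172 in edgeR), and it missed the threshold without vehicle replicate 1 or AG636 replicate 3, with an adjusted p of 0.0508 and 0.0687 in edgeR. Of 7 other nucleotidases and related enzymes, 4 were tested and 1 was called. This was *Samhd1*, a dNTP hydrolase, which rose by 0.45 on the log2 scale (adjusted p = 0.0225 in edgeR), with an adjusted p up to 0.0864 in the 3 of 6 fits that lost its call, those without vehicle replicate 2 or 3 or AG636 replicate 3. *Nt5e*, which encodes the surface nucleotidase CD73, had 30 counts in all and was not tested.

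Among 9 genes of purine nucleoside breakdown and recovery, 2 were called higher and 2 lower. *Xdh*, xanthine dehydrogenase, which forms uric acid in purine breakdown, had 3.57, 4.97 and 2.51 CPM with vehicle and 9.77, 15.1 and 12.8 CPM with AG636. It rose by 1.73 on the log2 scale, and *Gda*, guanine deaminase, rose by 1.15 (adjusted p = 0.00667 and 0.0108 in edgeR). The recovery enzymes *Adk*, adenosine kinase, and *Aprt*, adenine phosphoribosyltransferase, fell by 0.94 and 0.76 (adjusted p = 0.0121 and 0.0089 in edgeR). These 4 calls held in each of the 6 fits without 1 library.

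**Figure D3:**
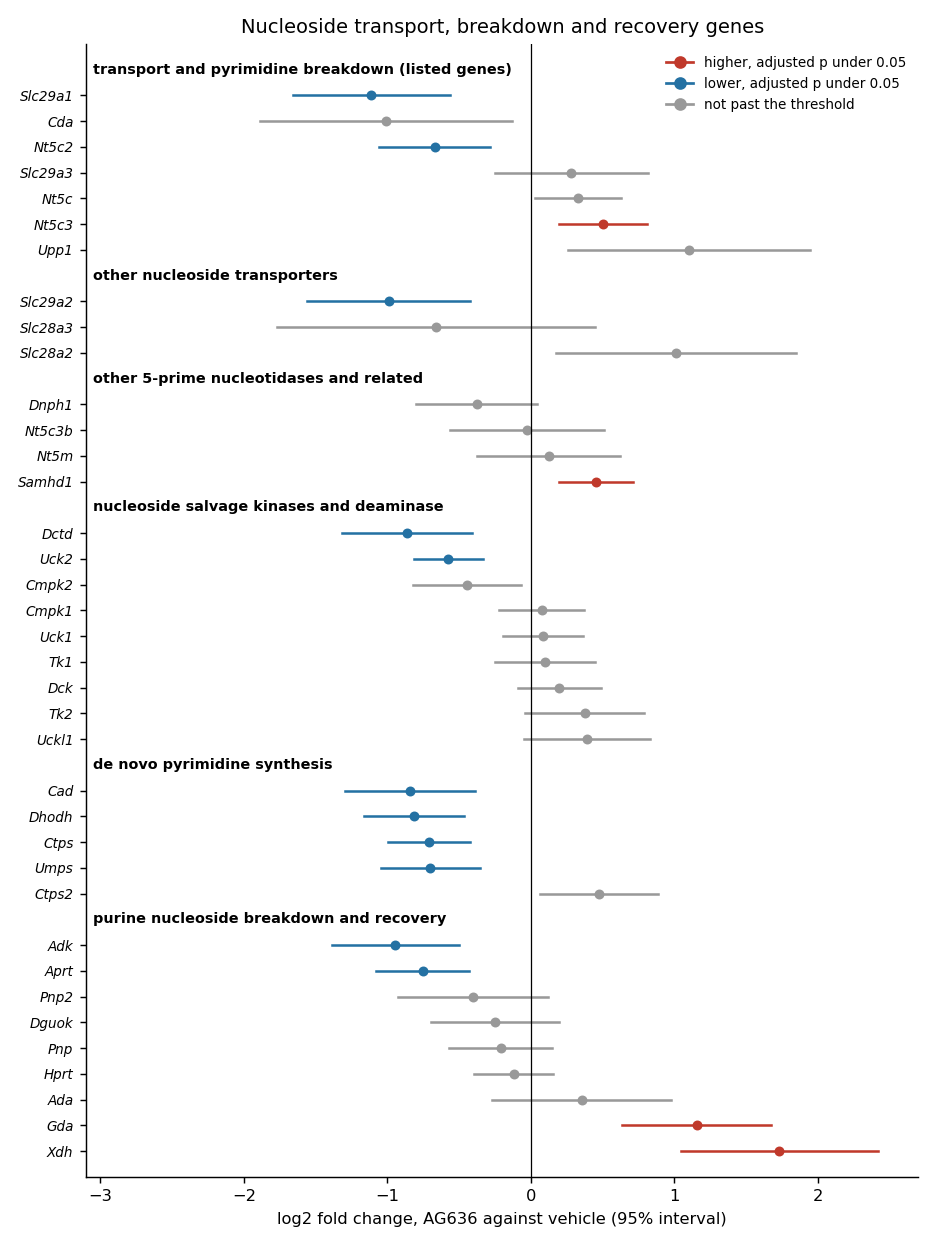
Log2 fold change of AG636 against vehicle with its 95% interval (horizontal axis) for the 7 tested genes of the list and the 30 tested genes of the related lists, coloured by whether the adjusted p was under 0.05. Both signs occur among transport and breakdown genes, from -1.11 for *Slc29a1* to 1.10 for *Upp1*, whereas 4 of the 5 genes of *de novo* synthesis are lower.

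The 3 called genes were also placed among all tested genes by the distance between standardised log2 CPM profiles over the 6 libraries. Nearest to *Slc29a1* were *Rexo2*, *mt-Nd4* and *Chchd10*, at distances from 0.122 to 0.168 where the largest possible is 4.47. Nearest to *Nt5c2* were *Grwd1*, *Emc9* and *St6galnac4*, between 0.106 and 0.154. Nearest to *Nt5c3* were *Zbtb38*, *Ksr1* and *Lrif1*, between 0.153 and 0.339. With 6 libraries in 2 groups many genes have near profiles, so these distances are a description.

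Each fold change kept its sign under every setting tried, whether another tool, scaling or filter was used or a library was left out. *Slc29a1* kept its call in 5 of the 6 fits without 1 library, *Nt5c2* in 2 and *Nt5c3* in 1. All 3 kept it in each of the 7 other settings at the same threshold, and none of them passed the stricter threshold of 0.01.

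**Figure D4:**
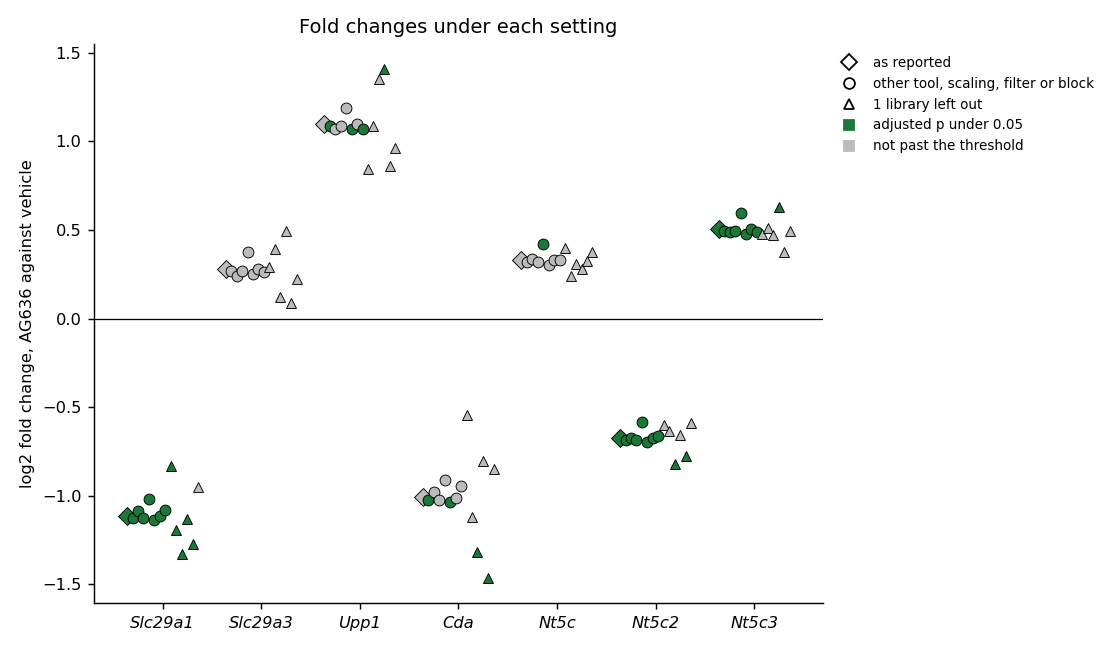
Log2 fold change (vertical axis) of the 7 tested genes as reported, under 7 other tools, scalings, filters or models, and with each of the 6 libraries left out, coloured by whether the adjusted p was under 0.05. No point crosses 0, and calls of *Nt5c2* and *Nt5c3* are lost only where a library is left out.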

How the data were processed

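RNA was sequenced from sorted I1DN cells, with 3 libraries from mice given vehicle and 3 from mice given AG636, and groups and replicate numbers were taken from the sample titles. The authors deposited raw counts, the number of reads assigned to each gene in each library, from a kit that reads the end of polyadenylated transcripts. Per the submitters' processing notes, reads were trimmed with cutadapt 1.9.1, mapped to mm10 with HISAT2 2.0.4 and counted with featureCounts of Subread, whereas the paper names other versions of cutadapt and Subread. The annotation release and the use of strand are not given in the sources used here, so reads on overlapping genes of opposite strands cannot be told apart. The deposited column of gene length was used in no test, and 0 per-sample columns were left unused. The 8 members, the gene lists and the motifs were chosen with earlier results of these data known. Promoter windows were taken from RefSeq (GRCm38.p6).

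The counts were fitted with edgeR 4.0.16 under R 4.3.3. Genes were kept by filterByExpr (minimum count 10, minimum total 15), which left 11092 of 54838, scaled with TMM and compared with the quasi-likelihood test without a block, with Benjamini-Hochberg adjustment over all tested genes. The standard error was the log2 fold change divided by the square root of F. Alternatives were DESeq2 1.42.0, limma 3.58.1 with voom, other scalings and filters, a replicate block, an adjusted p under 0.01 and leaving out each library. The code was tested on counts drawn from the real means with known changes. Libraries of a group differed by more than sampling noise, with a chi-square between 6.22 and 14.6 per degree of freedom, so each counted once. Genes were named by rule: the 8 members, called genes of the related lists, others for contrast, and the 3 nearest profiles of each called member. *Kit*, *Myb*, *Klf1* and the neutrophil markers named singly stand outside this rule and were chosen after their values were seen. The values of 1 marker gene are not reported here.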

Additional observations from a re-analysis of the deposited data

How the results depend on the processing

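At an adjusted p under 0.01, 231 genes were called higher and 325 lower, with 0 of the 8 listed genes in either direction. Without 1 library, calls over all genes ranged from 399 to 1074 higher and from 452 to 1298 lower, those of the listed genes from 0 to 2 higher and from 0 to 3 lower. The lowest counts over all genes came without AG636 replicate 3, and *Slc29a1*, *Nt5c2* and *Nt5c3* were all above the threshold there. With library size alone, 61.9% of called genes were higher, against 48.4% with TMM, and *Nt5c* passed at 0.42, which gave 2 listed genes called higher. The number called higher was also 2 with DESeq2, with no filter and with the replicate block, since *Upp1* passed at 1.09, 1.07 and 1.07. *Cda* passed at -1.02 with DESeq2 and at -1.03 with no filter, where 21371 genes were tested. Without 1 library the log2 fold change ranged from -1.33 to -0.83 for *Slc29a1*, 0.09 to 0.50 for *Slc29a3*, 0.84 to 1.41 for *Upp1*, -1.46 to -0.54 for *Cda*, 0.24 to 0.40 for *Nt5c*, -0.82 to -0.59 for *Nt5c2* and 0.37 to 0.63 for *Nt5c3*. *Dpyd* gave no value under any alternative.

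Same-numbered libraries of the groups had correlations of -0.06, -0.18 and 0.22 between their deviations from the group means, so the numbers were not taken to pair the mice. With the replicate block 914 genes were called higher and 1046 lower. Vehicle replicate 3 was the only library that correlated best with its own number, at 0.22. The highest correlation, 0.36, was between vehicle replicate 1 and AG636 replicate 2.

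Among the 7 tested genes of the list, *Upp1* had the fewest counts, 367 over all libraries. *Cda* had 1063 counts and a standard error of 0.39, beside 0.38 for *Upp1*. *Dpyd*, which was not tested, had 0 counts. Where a call was lost without a library, fewer samples were used, and no other cause was tested.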

Other observations

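The ratio of *Uck2* to *Nt5c3* counts within a library, chosen after the values were seen, was between 0.694 and 0.772 in the vehicle libraries and between 0.308 and 0.421 in the AG636 libraries. These ranges did not overlap. *Uck2* encodes a kinase that adds a phosphate to uridine and cytidine, and *Nt5c3* a nucleotidase that takes it off UMP and CMP, so the ratio sets a recovery gene against a breakdown gene. It was not tested, since both genes were picked for their change. *Nt5e*, which was too low to test, had 1, 2 and 1 counts in the vehicle libraries and 5, 12 and 9 counts in the AG636 libraries.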
